A study of Homo sapiens with 8 samples.

Results

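The regions described here were called as bound in all 3 replicate 2 libraries of a RUNX1 binding study and in none of its 3 replicate 1 libraries. They were chosen by merging the peaks of 6 lists on chromosomes 1 to 22 and X that overlapped by 1 bp or more, and by keeping merged regions with a peak from the RUNX1-4A, RUNX1-4D and wild-type (WT) lists of replicate 2 and no peak of replicate 1. Of 33402 merged regions, 7462 (22.3%) met this rule. The presence or absence of a peak in each list therefore chose the members, and all peak strengths given below come from the same lists, so they describe the members and were not tested. Binding was measured by CUT&RUN, in which an antibody on permeabilized cells brings a nuclease to its target and the DNA cut loose is sequenced. The cells were HEL, an erythroleukemia line that carries features of red cell precursors and of megakaryocytes. HEL lines carried HA-tagged RUNX1-4A, RUNX1-4D or WT RUNX1, or an empty vector, with 2 biological replicates each, and were kept in 2 µg/ml puromycin. By the usual naming, 4A replaces phosphorylated serine or threonine residues by alanine and 4D replaces them by aspartate, an acidic stand-in for phosphate. Each library started from 500000 cells in 0.01% digitonin with an anti-HA antibody and 12 PCR cycles. The antibody reads the tagged protein alone, so RUNX1 made from the cells' own gene was not measured, and all groups share that gene and the selection drug. The empty vector served as the background for peak calling, and its libraries have no peak list here. Peak lists hold no RNA values, so the identity of the cells could not be checked against marker genes. The replicate 2 lists are the longer ones, with 24203 (4A), 21076 (4D) and 25845 (WT) peaks, against 6256, 5346 and 6752 in replicate 1. They hold no read totals, so the depth of each library is unknown, and a region absent from a list is not shown to be unbound.

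RUNX1 is a transcription factor that binds DNA together with its partner CBFB, through the Runt domain, at short sites whose core reads TGTGGT or TGCGGT on either strand. It is needed for the first blood stem cells and later for megakaryocytes, the cells that shed platelets, and it works with GATA1, TAL1, FLI1 and ETS factors at many of the same enhancers. Because a peak call depends on depth, background and threshold as well as on binding, the same site can be listed in one library and missing from another.

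To show what lies under such regions, 6 promoter sequences are printed, each of a gene whose promoter window holds the WT replicate 2 summit of a member. They include promoters with the RUNX letters (TUBB1, the megakaryocyte tubulin, and ITGAM, the myeloid integrin subunit CD11b) and promoters lacking them (ZNF48, KMT2A, MYB and RPL15), chosen from leading members and from the gene lists. Sequences are from RefSeq on GRCh38.p14, 5′ to 3′ on the gene's strand, and run from 250 bases before the start site to 50 after, so that the start site is base 251. Capitals mark TGTGGT or TGCGGT, or the same letters read on the opposite strand.
TUBB1 (chr20:59019179-59019478, + strand): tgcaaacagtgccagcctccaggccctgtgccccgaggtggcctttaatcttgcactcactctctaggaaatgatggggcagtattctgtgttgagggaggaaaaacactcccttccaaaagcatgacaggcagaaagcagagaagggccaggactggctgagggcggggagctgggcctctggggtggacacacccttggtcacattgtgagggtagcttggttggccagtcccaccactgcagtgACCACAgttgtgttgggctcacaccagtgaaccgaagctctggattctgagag
ITGAM (chr16:31259725-31260024, + strand): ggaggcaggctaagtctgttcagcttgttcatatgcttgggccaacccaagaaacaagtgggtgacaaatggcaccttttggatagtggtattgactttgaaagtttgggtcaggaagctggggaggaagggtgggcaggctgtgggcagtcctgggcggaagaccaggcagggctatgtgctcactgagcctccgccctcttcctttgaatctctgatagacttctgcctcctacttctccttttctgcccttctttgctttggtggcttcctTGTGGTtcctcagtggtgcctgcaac
ZNF48 (chr16:30395170-30395469, + strand): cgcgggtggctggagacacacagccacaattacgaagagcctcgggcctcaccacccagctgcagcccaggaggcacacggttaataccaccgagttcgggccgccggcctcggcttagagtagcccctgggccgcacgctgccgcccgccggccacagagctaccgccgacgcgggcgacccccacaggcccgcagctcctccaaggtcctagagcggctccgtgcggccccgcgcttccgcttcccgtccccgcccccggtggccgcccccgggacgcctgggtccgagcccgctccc
KMT2A (chr11:118436242-118436541, + strand): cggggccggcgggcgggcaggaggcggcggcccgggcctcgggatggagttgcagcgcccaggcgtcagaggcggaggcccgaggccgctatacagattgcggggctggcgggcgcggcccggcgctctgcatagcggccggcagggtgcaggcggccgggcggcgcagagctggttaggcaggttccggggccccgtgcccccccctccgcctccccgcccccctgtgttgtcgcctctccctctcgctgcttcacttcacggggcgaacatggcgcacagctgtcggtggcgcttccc
MYB (chr6:135181058-135181357, + strand): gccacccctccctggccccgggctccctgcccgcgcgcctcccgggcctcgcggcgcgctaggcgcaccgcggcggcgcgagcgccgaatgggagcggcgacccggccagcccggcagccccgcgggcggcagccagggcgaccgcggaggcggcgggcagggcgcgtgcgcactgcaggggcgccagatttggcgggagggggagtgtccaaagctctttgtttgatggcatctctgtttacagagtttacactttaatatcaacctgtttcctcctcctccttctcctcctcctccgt
RPL15 (chr3:23916848-23917147, + strand): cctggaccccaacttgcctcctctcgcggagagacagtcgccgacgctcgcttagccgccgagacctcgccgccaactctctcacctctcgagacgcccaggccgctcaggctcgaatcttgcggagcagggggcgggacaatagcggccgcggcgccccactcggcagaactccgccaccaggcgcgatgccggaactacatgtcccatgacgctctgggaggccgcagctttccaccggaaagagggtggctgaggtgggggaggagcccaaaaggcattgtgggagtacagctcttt
The TUBB1 window has the letters once, at base 248 on the opposite strand, and the WT replicate 2 summit lies 21 bases before the start site. In the ITGAM window the letters begin at base 275 and the summit falls on the start site itself. The summits at ZNF48, KMT2A, MYB and RPL15 lie 95, 224, 139 and 63 bases before the start site, in windows without these letters. Absence of the letters from a window says nothing about sequence outside it.

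Within the replicate 2 lists, members were of middle rank. Peak strength is the authors' −log10 q value, which is higher for peaks that stand further above the background. Its median over members was 10.8 in the 4A list, 9.20 in the 4D list and 12.7 in the WT list. Regions called in all 6 libraries, 3288 in number and called six-library regions here, had medians of 46.4, 39.8 and 48.1 in the same lists. Expressed as a percentile rank within its own list, the median member stood at 53.0 in 4A, 45.9 in 4D and 57.0 in WT, against 90.4, 88.3 and 91.0 for six-library regions. The authors' fold enrichment had member medians of 5.35, 5.52 and 6.89, against 10.5, 11.0 and 13.7. Few members reached the level of the six-library regions: 53 of 7462 (0.710%) lay above the six-library median in every list. In all 3 lists, 5004 members (67.1%) reached a −log10 q of 5, 2398 (32.1%) reached 10, 622 (8.34%) reached 20 and 26 reached 50. At the other end, 201 members were below the 25th percentile in all 3 lists. With 1 replicate 2 library per line, the values of the 3 lines are side by side without a replicate check, and differences between lines were not tested.

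**Figure D1:**
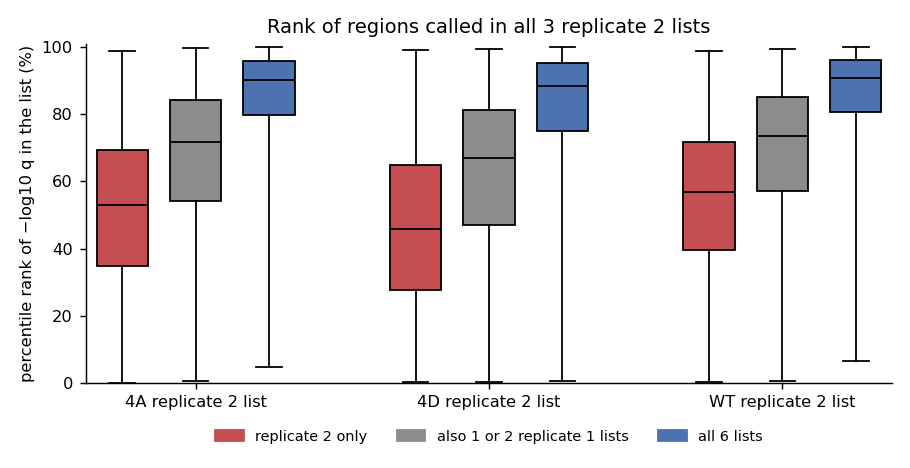
Percentile rank of −log10 q within each replicate 2 list (0 weakest, 100 strongest; vertical axis) for the region classes in the legend; boxes span the quartiles, the line is the median and whiskers reach the lowest and highest region. Members have medians of 53.0 (4A), 45.9 (4D) and 57.0 (WT), and six-library regions have 90.4, 88.3 and 91.0.

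The weaker a region was in the replicate 2 lists, the more often it was a member. Regions called in all 3 replicate 2 lists numbered 15235, and members were 49.0% of them. When these regions were ranked by −log10 q and divided into 10 equal bins, members made up 81.0% of the weakest bin and 3.35% of the strongest in the 4A list. The same shares were 80.2% and 4.59% in the 4D list, and 81.6% and 3.54% in the WT list. When each replicate 2 list was shortened to the length of its line's replicate 1 list by −log10 q, 511 regions met the rule, and 18.2% of them were at the ends of protein-coding genes. The edge of the rule is thin. Of the regions outside it, 2576 had all 3 replicate 2 peaks and exactly 1 replicate 1 peak, which was 4A for 908, 4D for 527 and WT for 1141. The weakest of those replicate 1 peaks had −log10 q of 1.40, 1.40 and 1.41, at LONRF1, PCNX4 and NT5DC4, against replicate 2 values between 7.58 and 26.7. Just inside the rule, a region at HDDC3 had 1.30 in 4A, 7.03 in 4D and 2.70 in WT, and a region at TMEM87B had 2.60, 3.24 and 1.31. Another lay 2.49 kb from GATA2, the stem and progenitor GATA factor (chr3:128495390-128495989), with 5.11, 1.35 and 9.61. The nearest region with a replicate 1 peak is 0.27 kb from it.

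**Figure D2:**
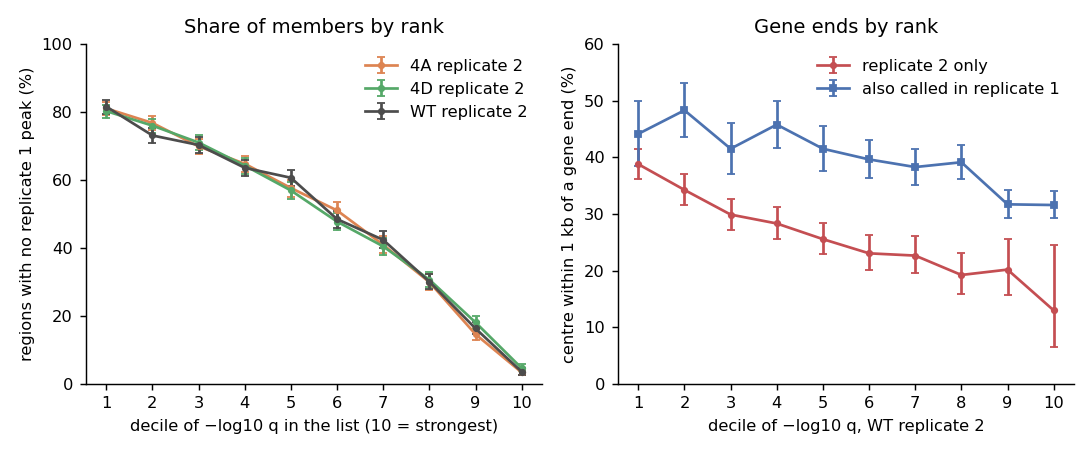
Bars are 95% Wilson intervals. Left, share of all-replicate-2 regions with no replicate 1 peak (%) in each of 10 equal bins of −log10 q, one line per replicate 2 list, falling to between 3.35% and 4.59% in the strongest bin. Right, share of regions whose centre is no further than 1 kb from an end of a protein-coding gene (%) in each bin of the WT list, members and others; 13.0% of members and 31.6% of others in the strongest bin.

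Members are named here by the nearest protein-coding gene, which can be far away. Ranked by the lowest of their 3 percentile ranks, the leading 20 stood between the 93.0 and 97.9 percentile. Of these 20, 11 lay inside a gene, 4 within 1 kb of a gene end and 5 between genes. The first, inside ARHGEF11, a guanine nucleotide exchange factor (chr1:156999531-157000051), had −log10 q of 100.1 in 4A, 125 in 4D and 111 in WT and fold enrichments of 15.5, 21.2 and 21.9. The second lay 50.2 kb from VEGFA, the vascular growth factor gene (chr6:43836396-43836951), with 132, 95.7 and 119. The next lay inside TFCP2L1, a transcription factor gene, at chr2:121244822-121246098, with 94.3, 89.8 and 123. Values at CD4, the T cell and monocyte coreceptor (chr12:6791589-6792852), were 73.3, 97.1 and 111, and the nearest region with a replicate 1 peak was 58.9 kb away. SOCS3, which dampens cytokine signalling through JAK and STAT proteins, had a member 4.16 kb from the gene (chr17:78364778-78365389) with 64.5, 61.4 and 77.0. HES1, a Notch target repressor, had one 2.71 kb away (chr3:194140793-194142090) with 76.8, 54.9 and 75.6. All of these values exceed 50, which 26 members did in every list. Among the others of the 20 were ZNF48, a zinc finger gene with its member 0.123 kb from the start site (82.3, 72.5 and 87.4), ID2, the inhibitor of basic helix-loop-helix factors, which is 383 kb away, WNT10A, a secreted WNT ligand (57.7, 68.2 and 116), MED25, a Mediator subunit, and SSBP3, a partner of the LDB1 complex. The members at C10orf105, PDLIM1, CYP2E1 and CDH23 lie on chromosome 10, 4 of the 20. Within 5 kb of 8 of the 20 was a region with a replicate 1 peak.

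Members were narrower than six-library regions, and their summits in the 3 lines lay slightly further apart. The summits of a member share one merged region by the rule, which in part sets how close they lie. Their median width was 489 bp (quartiles 368 and 660), against 867 bp for six-library regions. The 3 summits of a member spread over a median of 63 bp, against 51 bp, and fell within 100 bp of each other in 67.2% of members against 74.2% of six-library regions. In 7062 members (94.6%) each list had 1 peak. The 5 widest members were at ARID1B, a chromatin remodeller subunit (2971 bp), PPP6R2, CPN2, BCOR, a corepressor of BCL6 (2563 bp), and ISYNA1. The nearest region with a replicate 1 peak was a median of 35.1 kb away (quartiles 9.84 and 106 kb), and 396 members (5.31%) had one within 1 kb. Nearest six-library regions were at a median of 120 kb, with 12.0% of members within 10 kb.

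The share of regions at gene ends was lower in members than in the regions that replicate 1 also called, and the intervals of members and six-library regions do not overlap. The centre was within 1 kb of an end of a protein-coding gene for 28.9% of members (2154 of 7462; 95% Wilson interval 27.8 to 29.9). It was so for 42.2% of six-library regions (40.5 to 43.9) and 34.7% of regions in all replicate 2 lists with some replicate 1 peaks. Intervals cover counting error only, and regions of one library are not replicates, so no test was made. A further 39.7% of members were inside genes and 31.5% between genes, against 34.3% and 23.5% of six-library regions. Regions of replicate 2 alone that were called in 2 lists had 21.7% at gene ends and those in 1 list 18.7%, so members stand between these and the six-library regions. Counting start sites in place of both ends gave 25.2% of members and 38.0% of six-library regions. At matched rank the gap was present in all 10 bins of the WT list, as the plot by rank shows. In the fifth bin 25.5% of members and 41.5% of the others were at gene ends, and in the eighth 19.2% and 39.1%. The share was also lower in members in all 10 bins of the 4A and 4D lists. The intervals overlap in the weakest bin of the 4D and WT lists and in the 3 weakest bins of the 4A list, where 31.8%, 34.4% and 32.8% of members stood against 36.7%, 40.4% and 36.2% of the others.

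Over the whole promoter window, the share with RUNX letters was lower under members than under six-library regions. Beside regions of similar WT rank that replicate 1 also called, it was close. Of 1281 promoter windows that held a member's WT summit, 24.4% had TGTGGT or TGCGGT on either strand (22.1 to 26.8). It was 37.0% of 907 windows under six-library regions (34.0 to 40.2), 26.7% under regions with some replicate 1 peaks and 19.0% of all 22132 windows. Windows of one gene can overlap, and 15812 of 19974 protein-coding genes have one. Below the 50th percentile, 21.9% of members had the letters, against 24.0% of regions of the same WT rank with a replicate 1 peak. From the 50th to the 75th it was 24.8% against 26.5%, from the 75th to the 90th 31.5% against 32.8%, and above the 90th 41.2% (n = 17; 21.6 to 64.0) against 41.9%. In both sets the share was higher in each higher band, and the intervals of the 2 sets overlap in all 4 bands. Restricting the count to 50 bp on each side of the summit gave 12.4% of members (n = 1003) and 13.7% of six-library regions (n = 670), and the intervals overlap. Windows that did not hold the full 50 bp on each side were left out of this count. Where the window had the letters, the nearest was a median of 49 bp from the summit in members (n = 312) and 68 bp in six-library regions (n = 336). TGTGGT alone was in 10.6% of members' windows, against 14.8% of six-library windows and 11.3% of all windows. TGCGGT alone was in 15.2%, 24.8% and 8.54%. Base composition differs too: the median GC content was 69.7% under members, 68.7% under six-library regions and 62.3% over all windows, and its part in these shares was not tested.

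**Figure D3:**
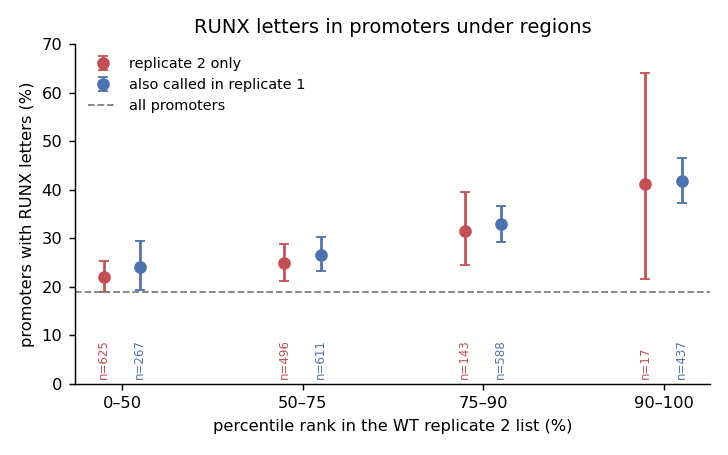
Share of promoter windows with TGTGGT or TGCGGT on either strand (%; points, with 95% Wilson intervals) by percentile rank of −log10 q in the WT replicate 2 list, for members and for regions also called in replicate 1; n is the number of windows and the dashed line is all promoters, 19.0%. The shares climb from 21.9% to 41.2% in members and from 24.0% to 41.9% in the others.

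Other motif letters were counted in the same windows, and a match is a description of sequence alone. Letters of different motifs can overlap and each was counted on both strands. The NF-Y letters CCAAT were in 38.9% of members' windows, 57.1% of six-library windows and 34.6% of all windows. The SP letters GGGCGG were in 81.7%, 88.2% and 56.3%. ETS letters, AGGAAG or CGGAAG, were in 55.3%, 54.7% and 49.7%, and members and six-library regions stood close. GATA letters, AGATAA, were in 3.90%, 1.87% and 7.88%, and the AP-1 letters TGAGTCA or TGACTCA in 3.04%, 1.43% and 4.01%. For GATA the interval of members (2.97 to 5.11) lies below that of all windows (7.53 to 8.24), while for AP-1 they overlap. The median GC content of these windows differs (69.7% for members, 68.7% for six-library regions and 62.3% for all), and its part in these motif shares was not tested either.

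For genes, a member within 10 kb of an end was found at 4893 of 19974 protein-coding genes, 24.5%. A member with no replicate 1 region within that distance was found at 2851 genes, 14.3%, and a six-library region at 2932 genes, 14.7%. The 10 lists of genes give the members a biological frame, and each count below is read against these background shares. A gene is counted for any member within 10 kb of an end, so that member can lie nearer to another gene. When each member was given to its nearest gene alone, at any distance, the lists moved both ways. Erythroid genes went from 38.1% to 33.3% and blood transcription factors from 52.8% to 69.4%, with all genes at 25.4%. Of 36 blood transcription factors, 19 (52.8%) had a member and 14 (38.9%) a six-library region. GATA2 had 3 members, one of them at a start site (chr3:128487754-128489197) with −log10 q of 20.3 in 4A, 19.4 in 4D and 18.7 in WT. KLF1, the erythroid master regulator, had a member 3.76 kb from the gene with 18.3, 16.7 and 17.1 and no replicate 1 region nearby. MYB, a progenitor factor, had one with its centre 0.30 kb from the gene, reaching past the start site, with 11.5, 5.93 and 12.4. ETV6, a repressor needed in stem cells and megakaryocytes, had 13.0, 9.21 and 15.3 at 0.42 kb, and ERG, an ETS factor of stem cells, had 19.4, 7.47 and 18.8. Those at KLF1, MYB, ETV6 and ERG were at genes with no region of a replicate 1 list.

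Megakaryocyte and platelet genes had a member at 16 of 40 (40.0%) and a six-library region at 15. NFE2, which drives platelet release, had a member 6.16 kb away with −log10 q of 28.9, 23.5 and 28.9. TUBB1 had its promoter member at 19.6, 14.1 and 30.5, and GP1BA, a subunit of the von Willebrand factor receptor, had 14.9, 17.4 and 20.8. CD9, a platelet tetraspanin, had 12.4, 17.6 and 21.7 and VWF, von Willebrand factor, 4.23, 15.9 and 14.1; both lacked a replicate 1 region. Of 42 erythroid genes, 16 (38.1%) had a member and 8 (19.0%) a six-library region. A member with no replicate 1 region was at 7 (16.7%), near the 14.3% of all protein-coding genes. SLC25A37, the mitochondrial iron importer mitoferrin, had 20.4, 56.7 and 20.6, and HBZ, the embryonic alpha-like globin, had 19.3, 33.7 and 34.7. RHD, a blood group antigen gene, had 31.9, 43.6 and 44.5, although its near-identical neighbour RHCE makes the placing of reads there uncertain.

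Cytokine receptor and signalling genes had a member at 14 of 39 (35.9%) and a six-library region at 17 (43.6%). Besides SOCS3, a member inside KIT, the stem cell factor receptor, had −log10 q of 48.4 in 4A, 26.1 in 4D and 45.7 in WT, and CISH, another feedback inhibitor, had 34.0, 28.4 and 25.7. CSF2RB, the shared beta chain of the IL-3, IL-5 and GM-CSF receptors, had 10.2, 7.64 and 16.5. RUNX1 cofactor and chromatin genes had a member at 11 of 36 (30.6%) and a six-library region at 13. KMT2A, a histone H3 lysine methyltransferase rearranged in leukemia, had 43.5, 23.03 and 36.1 at its promoter, BMI1, a Polycomb subunit, 17.4, 10.5 and 16.9, and HDAC2, a histone deacetylase, 10.4, 9.52 and 10.4. These 3 had no replicate 1 region. Among 32 myeloid genes 10 (31.3%) had a member and 5 a six-library region. MMP9, a granule protease, stood highest with 42.9, 74.7 and 62.6, and ITGAM stood lower, with 15.7, 21.995 and 24.4.

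Lymphoid genes had a member at 6 of 32 (18.8%), of which CD5, a T cell surface receptor, had 22.9, 17.0 and 20.5 and NKG7, a granule protein of killer cells, had 52.1, 11.3 and 40.0. Cell cycle genes had one at 6 of 38 (15.8%) against a six-library region at 12 (31.6%), and RB1, the retinoblastoma tumor suppressor, was the one gene of the 6 with no replicate 1 region. That member count is not stable: it was 13 without 4D replicate 2, 10 without 4A replicate 2 or WT replicate 1, and 11 with −log10 q of at least 5 in every list. Leaving out a library loosens the rule for every gene. Over all protein-coding genes the count went from 4893 to 6239 without 4D replicate 2, 5562 without 4A replicate 2 and 5676 without WT replicate 1. It was 4148 with −log10 q of at least 5 in every list. Ribosomal protein genes had a member at 10 of 46 (21.7%) and a six-library region at 2 (4.35%), against 24.5% and 14.7% of all protein-coding genes. Of the 10, RPL15 had 32.6, 28.4 and 42.7 at its promoter. The member count was 17 without 4D replicate 2, where the count over all protein-coding genes rose too. Genes that mark tissues outside the blood had a member at 6 of 36 (16.7%), and the count with no replicate 1 region was also 6; a six-library region was found at 1. Over all protein-coding genes the shares were 24.5% with a member, 14.3% with no replicate 1 region besides and 14.7% with a six-library region. Examples from the list were SFTPC, a lung surfactant gene (23.4, 19.8 and 27.9), and COL2A1, a cartilage collagen gene (9.43, 27.9 and 37.3). Within 2 kb of a gene end, 15.2% of all protein-coding genes had a member. The share was then 22.2% for blood transcription factors, 21.9% for myeloid, 19.4% for RUNX1 cofactor and chromatin, 19.0% for erythroid, 17.9% for cytokine and 17.5% for megakaryocyte and platelet genes. It was 15.2% for ribosomal protein genes, 11.1% for genes of other tissues, 9.38% for lymphoid and 7.89% for cell cycle genes.

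**Figure D4:**
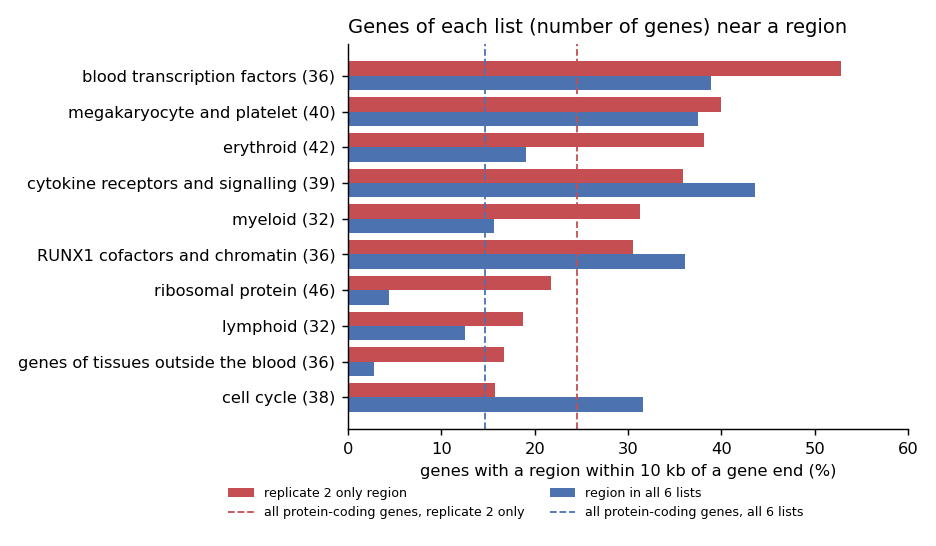
Share of genes of each list (%; list size in brackets) with a member (upper bar) or a six-library region (lower bar) within 10 kb of a gene end; dashed lines give all protein-coding genes, 24.5% and 14.7%. Blood transcription factors lead with 52.8% against 38.9%, and cell cycle genes are at 15.8% against 31.6%.

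When members inside the gene and up to 10 kb on either side were counted, 14203 genes had no member and 11 genes had 8 or more, with ties at 8 kept. IQSEC1, an ARF exchange factor, held 11 members and 4 six-library regions over 386 kb. PLCG2, the phospholipase of B cell and platelet receptors, held 9 and 0, as did PLEKHA6 and SYN3, and APBA2 and MAD1L1 held 9 and 2 each. Long genes offer more room: per 100 kb of gene and flanks, BCOR had 5.48 members and PLEKHA6 5.02, while SYN3 had 1.58. RUNX1 itself held 8 members and 6 six-library regions. GSE1 held 8 and 7, SEPTIN9, a cytoskeletal septin, 8 and 2, and BCOR 8 and 0. At RUNX1 the best member ranked at the 63.2 percentile in its weakest list.

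Members were not spread evenly over chromosomes. They were 49.0% of all-replicate-2 regions in the genome and 60.5% on chromosome 22 (55.8 to 64.9). The share was 56.2% on chromosome 13 (50.6 to 61.6), 55.8% on chromosome X (49.6 to 61.9) and 55.1% on chromosome 10 (51.1 to 59.0). It was lowest on chromosome 14, at 40.1% (35.5 to 44.9). The chromosome 14 value moves with 1 library. There, 45.3% of all-replicate-2 regions had no 4A replicate 1 peak, against 64.7% in the genome, while the shares for 4D and WT replicate 1 were 68.0% and 59.4%, against 68.5% and 60.1%. Without 4A replicate 1 the chromosome 14 share was 54.7%, against 54.9% in the genome. The 4A replicate 1 list lacked 78.0% of regions on chromosome 10 and 76.3% on chromosome 13. Without that list the member shares on these chromosomes were 57.7% and 58.8%, against 54.9% in the genome. The WT replicate 1 list lacked 62.1% on chromosome 10. On chromosome 22 all 3 lists lacked more than in the genome, with 74.9%, 81.8% and 69.9%. The lowest of a region's 3 percentile ranks had a median of 43.4 on chromosome X, 44.3 on chromosome 13 and 57.1 on chromosome 22. The part of rank in these shares was not tested.

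**Figure D5:**
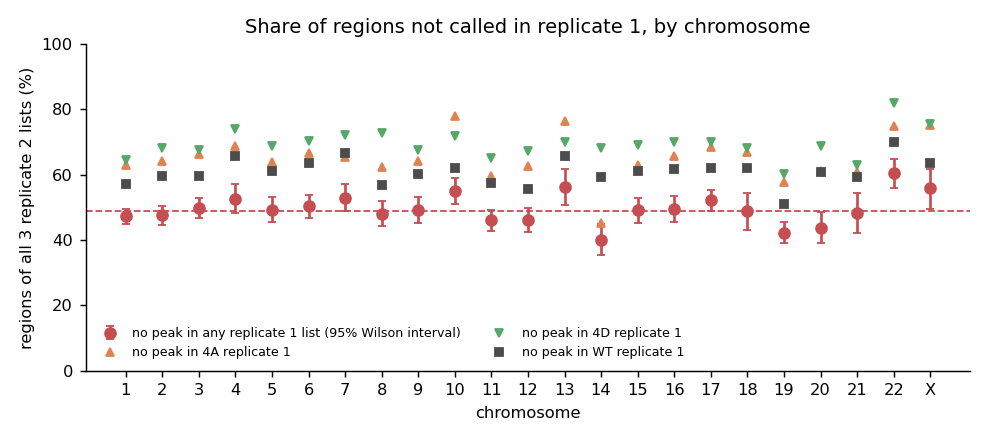
Share (%) of regions of all 3 replicate 2 lists with no peak in any replicate 1 list (circles, 95% Wilson intervals; dashed line 49.0% in the genome) and with no peak in each single replicate 1 list, by chromosome. Chromosome 14 is lowest for members (40.1%) and for 4A replicate 1 (45.3%), and chromosome 22 is highest for members (60.5%).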

How the data were processed

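Peaks were called by the authors per library, with the empty vector line as background per the labels; no source used here says whether its replicates were pooled. Per the submitters' processing notes, MACS2 2.2.7.1, Bowtie2 2.4.2, cutadapt 3.4, deepTools 3.5.1 and Picard 2.25.6 were used upstream with build hg38. The deposited lists give for each peak its position, a score, a fold enrichment (a ratio to background), and p and q values as −log10, with the summit offset. Read depth is unknown.

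The 6 lists were merged at an overlap of 1 bp and regions were classed by the lists that called them. Ranks are percentiles of −log10 q within a list. Distances use 19974 protein-coding genes of RefSeq GRCh38.p14, and RUNX letters were counted in its promoter windows, since no genome sequence was used here. Distances from a named member to a gene run from the member's centre, and those between regions from edge to edge. Gene counts within 10 kb use the edges of the region. Merging was tested on simulated data. Scripts used pandas 2.3.3, numpy 2.4.6, scipy 1.17.1 and matplotlib 3.10.9. Named regions are the 20 members with the highest lower percentile rank, the 3 lowest, the 5 widest and 3 regions just outside the rule; named genes are the 10 with most members (ties kept) and up to 6 per gene list by rank, plus up to 6 with no replicate 1 region, from which the text draws examples. Printed sequences were picked from the promoters under named members. The members, lists and choices were made with earlier results of these data known. No test was run, since the rule used the calls and regions are not replicates. Alternatives were thresholds, overlap rules, list lengths, gene distances, motif letters and leaving out each library. Items withheld for evaluation are not reported here.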

Additional observations from a re-analysis of the deposited data

How the results depend on the processing

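The number of members was 7462. It ranged from 7989 to 10566 when each of the 6 libraries was left out in turn, which loosens the rule, and was 511 when each replicate 2 list was shortened to the length of the replicate 1 list of its line. The share at gene ends, 28.9%, was 27.5% with summit windows, 18.2% in the 511 regions of shortened lists, 25.2% with start sites alone, 34.5% within 2 kb and 35.5% with all annotated genes, and ranged from 26.0% to 31.0% over libraries left out. Genes near a member, 4893, were 3044 within 2 kb and 5113 to 6239 over libraries left out. Promoters with RUNX letters, 24.4%, were 12.4% within 50 bp of the summit, over the 1003 windows that hold that span, and 10.6% with TGTGGT alone. The causes of these moves, beyond the construction of each alternative, were not tested. At −log10 q of at least 5 in the replicate 2 lists the number of members was 5004. Gene list counts within 2 kb of a gene end were 7 for megakaryocyte and platelet, 8 for erythroid, 8 for blood transcription factor, 7 for cytokine, 7 for cofactor and chromatin, 3 for lymphoid and 3 for cell cycle genes. All 20 leading members stayed members under every alternative, which was largely set in advance. Their lowest percentile rank, 93.0 or more, lies above the thresholds and list lengths tried, and leaving out a library only loosens the rule. No paired analysis was possible because the rule itself uses the replicate numbers and the results come from no test. Limits: replicate 2 has 1 library per line, read depth is unknown and no genome sequence was used, so motif counts cover promoters alone.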

Other observations

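In bins of 10 Mb with at least 25 all-replicate-2 regions, 214 in number, the member share was over 65% in 7 and under 35% in 6. The lowest were the first 10 Mb of chromosome 9, the stretch that holds JAK2, with 26.8% (11 of 41), and the next 10 Mb, with 31.8% (14 of 44). The highest were on chromosome 4, from 140 to 150 Mb, with 77.8% (21 of 27; 59.2 to 89.4), and on chromosome 10, from 40 to 50 Mb, with 33 of 44 regions (60.6 to 85.4 as %). These bins are the extremes of 214, their intervals are wide, and their difference from the genome was not tested. The reverse of the rule is nearly empty: 1 region had a peak in all 3 replicate 1 lists and none in replicate 2, and 463 had a replicate 1 peak and no replicate 2 peak at all.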
